A study of Mus musculus with 72 samples.

Results

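A set of 10 genes for regulators and surface proteins of the neural crest and of poorly differentiated melanoma was followed: Sox10, Sox9, Sox2, Pax3, Tfap2a, Foxd3, Axl, Tcf4, Aqp1 and Kit. They are 10 of the 50600 genes in the deposited count table, were listed by symbol with earlier results of these data known, and were read in all 72 libraries. Melanocytes arise from the neural crest, a migratory embryonic population specified by transcription factors of the SOX, PAX, AP-2 and FOXD families. Melanoma cells can move between a pigmented state, in which SOX10 and PAX3 drive MITF, and less differentiated states marked by neural crest genes or by the receptor tyrosine kinase AXL. KIT is the receptor for stem cell factor and is needed for melanoblast survival and migration. FOXD3 is active in premigratory neural crest and restrains the melanocyte fate there.

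RNA was sequenced from 6 mouse melanoma lines after 4 treatments, with 3 libraries for each of the 24 combinations. All lines carry NRASQ61K under the tyrosinase promoter (Tyr::NRASQ61K/°). The female ∆Ecad lines 1057 and 1064 also lack Cdkn2a (Cdkn2a-/-), carry a tyrosinase-driven Cre (Tyr::CreA/°) and the Cdh1dF/dF allele, and express Grpr, the receptor of gastrin-releasing peptide (GRP), without a transgene. The male line 1181 is labelled Cdkn2a-/- and Cdh1dF/dF without Cre. The female line 1014 carries only the NRAS transgene. Lines 1181 and 1014 received CMV::tGFP (1181-Ctrl, 1014-Ctrl) or CMV::Grpr/tGFP (1181-Grpr, 1014-Grpr), in which the viral CMV promoter drives the transgene. Cells were seeded for 24 h, kept for 18 h in 0.5% serum and then exposed for 4 h to 0.1% DMSO (mock), 10 nM GRP, 1 µM RC-3095 (RC), which blocks GRPR, or both agents (GRP+RC). Each genotype is represented by 1 or 2 lines, so genotype and line cannot be told apart. The labels number the replicates but do not say that they are separate cultures, so p-values measure the spread between these libraries.

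Library totals ran from 19512882 to 46862053 counts, and 3 counts, taken as the limit of detection in a library, corresponded to 0.0666 to 0.160 CPM (counts scaled to library size, by TMM over the 72 libraries). The melanocyte marker list (Mitf, Tyr, Tyrp1, Dct, Pmel and 5 others) summed to between 6010 and 38230 CPM in the mock libraries that matched their labels. Of the mast cell markers Cpa3, Mcpt4 and Fcer1a, none reached 1 CPM in any line, and the same held for the keratinocyte markers Krt5, Krt14 and Epcam. Other lists were not empty in the same mock libraries. Schwann and glia markers summed to between 201 and 850 CPM, with 2 or 3 of the 5 at a mean of 1 CPM or more. Of 5 fibroblast markers, 3 reached that mean in 1064, and of 3 endothelial markers, 2 did in 1057. Of 3 immune markers, 1 did in every line, with sums up to 23.1 CPM in 1181-Ctrl. What these levels reflect was not tested. Grpr stood at 187 to 1284 CPM in 1057 and 1064, at 107 to 620 CPM in 1014-Grpr, at 8.49 to 79.9 CPM in 1181-Grpr and at no more than 0.0915 CPM in the control lines. Cdh1 was at or below 0.119 CPM in 1057 and 1064, and at 9.74 to 26.9 CPM in the 1181 lines, whose label carries Cdh1dF/dF. These ranges leave out 2 libraries that went against their labels. The library labelled 1014-Ctrl mock replicate 2 held the Y-linked Ddx3y and Grpr, and the library labelled 1181-Grpr GRP+RC replicate 2 held no count of either. The first stood near the 1181-Grpr libraries, with Grpr at 48.1, Cdh1 at 22.7 and Xist at 172 CPM. The second had Cdh1 at 4.6 and Xist at 794 CPM, within the ranges of the matching 1014-Ctrl libraries (1.87 to 5.13 and 583 to 1051 CPM). Whether the 2 libraries were exchanged was not tested. Both were kept under their labels, and values without them are added for 1014-Ctrl and wherever a call described below changed. Reads of the 10 genes overlap other annotated exons in Tfap2a (14.6% of its exon bases, antisense genes) and Foxd3 (3.83%, Gm23366 on the same strand), which could share counts with them.

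The 250 bases before the annotated start of Foxd3 and Axl are printed because Foxd3 was the member raised by GRP in 3 lines and Axl the member with the widest resting range apart from Sox2 and Foxd3. The sequences are RefSeq windows on GRCm38.p6 that hold no annotated exon, at chr4:99656049-99656298 (plus strand) for Foxd3 and chr7:25788734-25788983 (minus strand) for Axl, and capitals mark the motifs found.
Foxd3: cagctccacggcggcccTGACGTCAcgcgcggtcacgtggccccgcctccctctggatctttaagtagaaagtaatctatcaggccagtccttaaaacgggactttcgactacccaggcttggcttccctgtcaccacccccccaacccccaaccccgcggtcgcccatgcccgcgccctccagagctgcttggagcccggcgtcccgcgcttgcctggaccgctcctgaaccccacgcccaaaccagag
Axl: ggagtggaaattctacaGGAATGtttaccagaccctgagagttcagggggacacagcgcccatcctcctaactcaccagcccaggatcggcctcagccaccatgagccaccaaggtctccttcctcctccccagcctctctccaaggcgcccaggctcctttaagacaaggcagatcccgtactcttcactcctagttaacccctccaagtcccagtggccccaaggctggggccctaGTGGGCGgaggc
In all, 7 motifs were searched on both strands: AP-1 (TGANTCA), CRE (ACGTCA), NBRE (AAGGTCA), E-box (CATGTG), TEAD (GGAATG), SOX (ACAAAG) and EGR (GTGGGCG). Other forms of the E-box were not searched, and the form CACGTG stands unmarked in the Foxd3 window. The Foxd3 window holds the CRE letters on both strands, which overlap and begin 233 bases before the start, and 6.47% of 32851 RefSeq promoter windows hold this motif. The Axl window holds the TEAD letters 233 bases and the EGR letters 12 bases before the start, found in 12.6% and 7.02% of all windows. A match is a description of these letters and not a bound site. The windows of 6 of the 10 members were in the table.

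Sox10 and Pax3, the transcription factors that maintain the melanocyte lineage upstream of MITF, were abundant in every line. Sox10 lay between 729 and 1289 CPM and Pax3 between 201 and 374 CPM over the 72 libraries. In mock-treated cells, Sox10 was 778 ± 33.0 CPM (SD, n = 3) in 1057 and 1075 ± 44.7 CPM in 1014-Grpr, a log2 difference of 0.49 ± 0.09 (SE; adjusted p = 0.000346 by the quasi-likelihood test of edgeR, Benjamini-Hochberg). On the per-length scale of the deposited TPM values, Sox10 had the highest mean of the 10 genes in mock-treated cells of each of the 6 lines, from 862 ± 31.7 TPM (SD, n = 3) in 1057 to 1525 ± 73.6 TPM in 1014-Ctrl (1568 ± 14.3 TPM, n = 2, without the library against its label). Pax3 was 340 ± 9.98 CPM in 1064, above 1057 by a log2 value of 0.42 ± 0.10 (adjusted p = 0.00333).

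The resting levels of Sox2, a pluripotency and neural progenitor factor, divided the lines by founder. Mock libraries of 1181-Ctrl held 53.1, 35.3 and 81.7 CPM and those of 1181-Grpr 42.2, 30.3 and 41.2 CPM. Mock libraries of 1014-Grpr held 4.80, 6.65 and 6.0 CPM, below every mock library of the 1181 lines (log2 difference from 1181-Grpr -2.69 ± 0.79, adjusted p = 0.0230). In 1057 the values were 0.0922, 0.155 and 0.214 CPM, near the limit of detection, and in 1064 no count was found in any mock library. Against that limit, taken as 3 counts in each library, Sox2 was at least 438-fold higher in 1181-Ctrl than in 1064 and at least 45.0-fold higher in 1014-Grpr. The 1014-Ctrl mock libraries held 2.28, 34.3 and 2.74 CPM, and the middle value is the library against its label. Between 1014-Grpr and 1014-Ctrl the log2 difference of Sox2 was -1.15 with that library and 1.22 without it (adjusted p = 0.643 and 0.322).

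Foxd3 went undetected in 1 of the 6 lines. It had no count in any of the 12 libraries of 1181-Ctrl, while the 11 matching libraries of 1181-Grpr held 4.16 to 9.74 CPM, at least 56.7-fold above the limit in mock-treated cells. Mock values were 2.37, 4.12 and 2.91 CPM in 1057, 10.9, 13.1 and 11.1 CPM in 1014-Grpr, and 39.8, 35.0 and 46.4 CPM in 1064. Foxd3 in 1064 exceeded 1057 by a log2 value of 3.69 ± 0.41 (adjusted p = 9.68e-06) and 1014-Grpr by 1.75 ± 0.37 (adjusted p = 0.00141). In 1014-Ctrl it was 16.2 and 15.3 CPM in the 2 matching mock libraries and 5.65 CPM in the third.

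Sox9, a neural crest factor that shares targets with SOX10, was also lower in 1181-Ctrl than in 1181-Grpr. Mock libraries of 1181-Ctrl held 4.55, 10.9 and 5.22 CPM, and those of 1181-Grpr 15.5, 33.9 and 27 CPM, a log2 difference of 1.89 ± 0.34 (adjusted p = 0.00197). Sox9 and Foxd3 were the 2 members that passed between these lines, where 9.73% of 15358 genes passed. The other 4 lines had mock means of 19.6 to 32.0 CPM of Sox9. The 1181-Grpr libraries differed from 1181-Ctrl in other ways: Xist, transcribed from the inactive X chromosome, stood at 193 to 248 CPM against at most 0.641 CPM, together with Ddx3y at 37.1 to 63.3 CPM. Whether the lines differ in origin, and what part that has in Foxd3 and Sox9, was not tested.

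**Figure D1:**
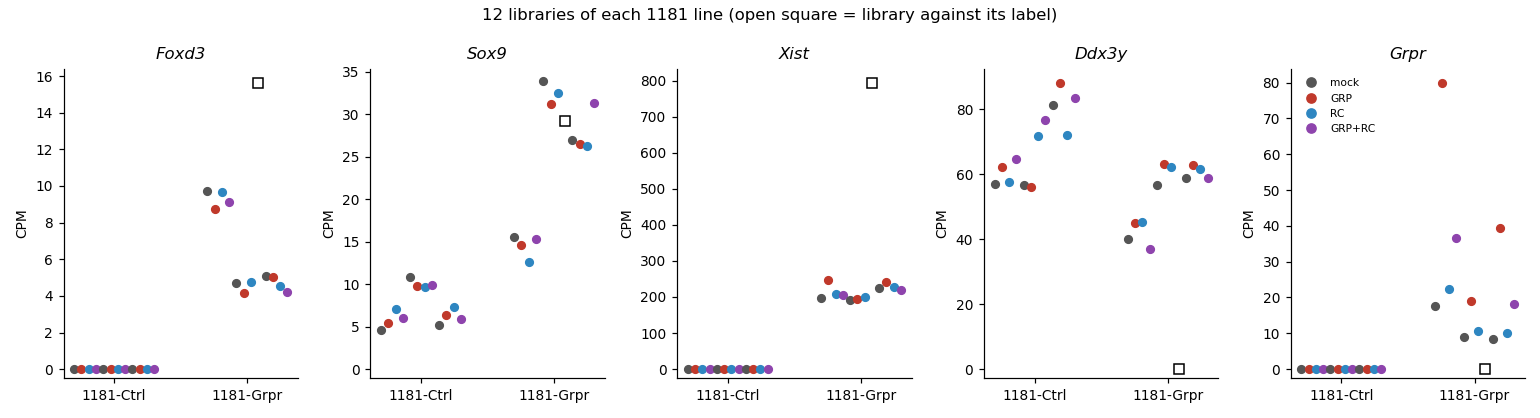
CPM (linear axes) of Foxd3, Sox9, Xist, Ddx3y and Grpr in the 12 libraries of 1181-Ctrl and the 12 of 1181-Grpr, coloured by treatment. Foxd3 is at 0 in all 1181-Ctrl libraries, and the open square, the library labelled 1181-Grpr GRP+RC replicate 2, has neither Ddx3y nor Grpr.

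Axl, the receptor of the vitamin K-dependent ligand GAS6 and a marker of the undifferentiated state, was nearly silent in 1057. Its mock libraries held 0.615, 0.371 and 0.551 CPM, whereas the mock libraries of the other 5 lines held 14.9 to 55.5 CPM. The log2 difference of 1064 from 1057 was 6.33 ± 0.51 (adjusted p = 1.85e-07). Its ligand Gas6 went the other way between these lines, with mock means of 138 ± 5.08 CPM in 1057 and 0.0694 ± 0.120 CPM in 1064 (SD, n = 3). Of the other TAM receptors, Tyro3 was 14.8 ± 0.307 CPM in 1057 and 11.8 ± 3.60 CPM in 1064, and Mertk was 87.5 ± 3.25 and 198 ± 43.2 CPM.

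Tcf4, an E-protein partner of tissue-specific bHLH factors that marks mesenchymal-like melanoma cells, was highest in the ∆Ecad lines. Its mock libraries held 608, 625 and 640 CPM in 1057 and 274, 493 and 439 CPM in 1064, against 53.5 to 114 CPM in the 12 mock libraries of the other lines. The log2 difference of 1064 from 1181-Ctrl was 2.50 ± 0.26 (adjusted p = 1.26e-06), and from 1014-Grpr 2.03 ± 0.25 (adjusted p = 9.62e-06). Thus 1057 combined the highest Tcf4 of the 6 lines with the lowest Axl, although both genes mark undifferentiated melanoma.

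Tfap2a, an AP-2 factor of neural crest and melanocytes, was 79.5 ± 7.0 CPM in mock-treated 1064 and 24.7 ± 0.5 CPM in 1057, a log2 difference of 1.69 ± 0.31 (adjusted p = 0.000442). In the 1181 lines it ranged from 13.2 to 37.8 CPM and in 1014-Grpr from 61.9 to 79.3 CPM. Kit was highest in 1057, at 676, 659 and 656 CPM, and lowest on average in 1064, at 145, 146 and 73.7 CPM (log2 difference -2.45 ± 0.44, adjusted p = 0.000315). Kit in 1181-Grpr was 386 ± 50.8 CPM (SD, n = 3) and did not pass against 1057 (log2 difference -0.77 ± 0.42, adjusted p = 0.129), although it did without the 2 libraries (adjusted p = 0.0333). Aqp1, a water channel used as a marker of neural crest-like melanoma cells, was low in every line, from 0.302 to 9.68 CPM over the 72 libraries. Its mock mean was 5.88 ± 1.89 CPM in 1181-Grpr and 1.23 ± 0.646 CPM in 1064 (log2 difference -2.28 ± 0.60 for 1064 against 1181-Grpr, adjusted p = 0.00511).

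**Figure D2:**
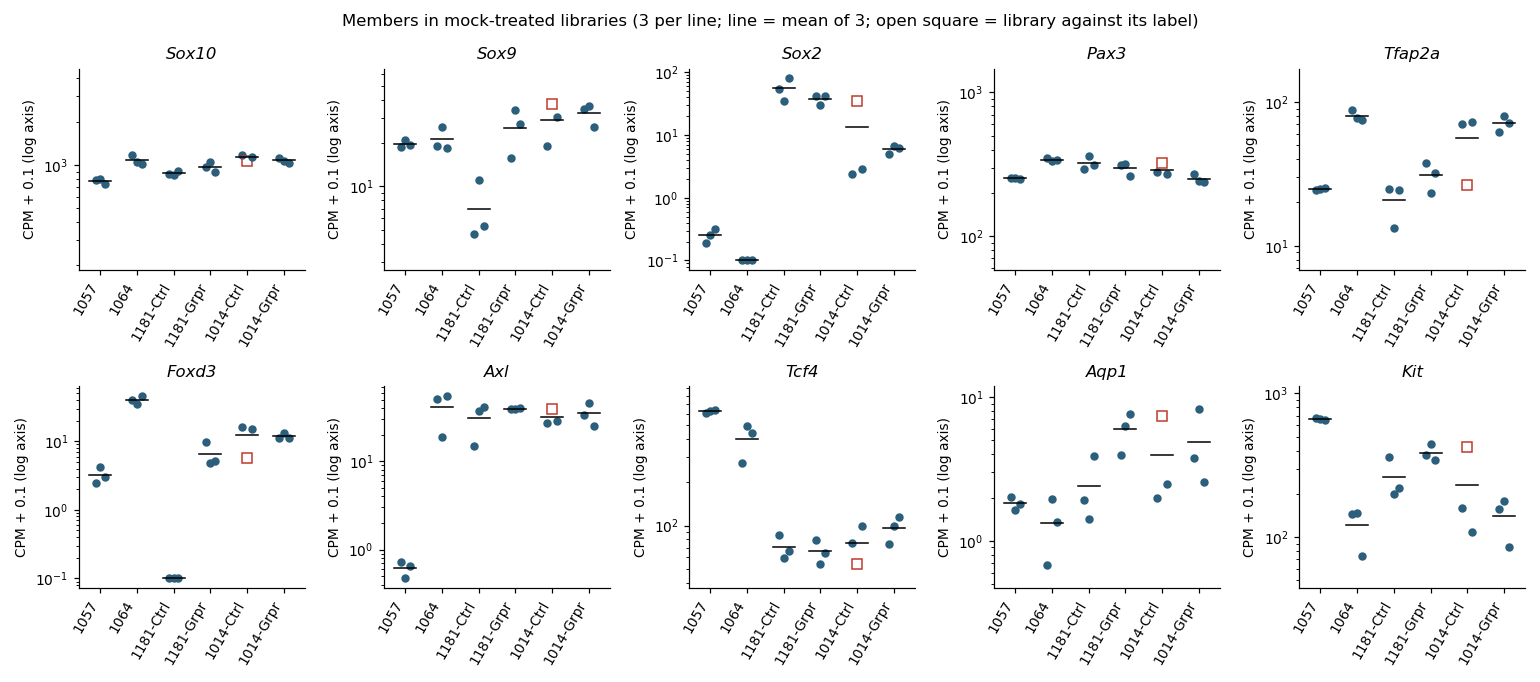
CPM plus 0.1 (log axes) of the 10 genes in the 3 mock libraries of each line, with the mean of 3 as a line. Axl is lowest in 1057, Foxd3 is at 0 in 1181-Ctrl, Sox2 is at 0 in 1064, and the open red square is the library labelled 1014-Ctrl mock replicate 2.

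Over the 15 pairs of lines, 73 of 150 member tests passed with every library, where 41.7% of all gene tests did, and 83 without the 2 libraries, where 48.2% did. Between 1014-Ctrl and 1181-Grpr, Sox2, Tfap2a, Foxd3 and Kit passed only without the 2 libraries (adjusted p = 2.93e-06, 0.000775, 0.00419 and 0.00403). Between 1064 and 1057, 7 members passed where 49.4% of 15358 genes did (and Sox2 also without the 2 libraries), so the share of members was not far from that of all genes. Ordered by mock mean, neighbouring lines did not always differ: for Axl, none of the 10 pairs among the 5 lines other than 1057 passed, and for Tcf4 none of the 6 pairs among the 1181 and 1014 lines did. Across the 24 medians of line and treatment, the genes whose log2 CPM most resembled a member's were Tagln2, Slc16a13 and Filip1l for Foxd3 (r = 0.976 for each) and Igfbp7, Gm2788 and Piezo2 for Tcf4 (r = 0.993, 0.993 and 0.992). For Axl they were Meis3, Gm8292 and Ifnar2 (r = 0.988, 0.982 and 0.981), and for Kit Wdfy3, Hps4 and Rarb (r = 0.942, 0.939 and 0.937). These correlations are descriptions over groups that share lines, so most of each rests on differences between lines.

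For GRP against mock, 6 of the 10 members passed in 1057, 3 of the 9 tested in 1064, 3 of 10 in 1014-Grpr and none in 1181-Grpr. The shares of all tested genes that passed were 52.6% in 1057, 6.38% in 1064 and 29% in 1014-Grpr. In 1057 and 1014-Grpr the share of members was therefore close to that of all genes. With the additional limit of an absolute log2 fold change above 1, Sox9 and Foxd3 passed in 1057 (6.46% of all genes), Foxd3 and Kit in 1064 (2.32%), and Axl in 1014-Grpr (4.01%). Replicates with the same number deviated together in 1064, 1014-Grpr, 1181-Ctrl and 1181-Grpr but not in 1057 or 1014-Ctrl. For 1014-Ctrl this includes the mock library against its label, so pairing there is left undecided. With the replicate number as a block, 5 members passed in 1064 (43.5% of genes) and 8 in 1014-Grpr (53.6%). In 1064 no member passed without replicate 1 or without replicate 2, where no gene passed either, and in 1014-Grpr none passed without replicate 3, nor Axl without replicate 1 or Tfap2a without replicate 2.

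Foxd3 rose in the 3 lines in which any gene passed. In 1057 it was 2.37, 4.12 and 2.91 CPM in mock and 8.67, 13.9 and 12.6 CPM after GRP, a log2 fold change of 1.93 ± 0.21 (SE; adjusted p = 3.07e-07, edgeR's quasi-likelihood test). In 1064 it was 39.8, 35.0 and 46.4 CPM in mock and 92.6, 80.1 and 86.1 CPM after GRP (log2 fold change 1.10 ± 0.10, adjusted p = 0.00221). In 1014-Grpr the values were 10.9, 13.1 and 11.1 CPM in mock and 16.3, 18.2 and 17.5 CPM after GRP (0.58 ± 0.15, adjusted p = 0.0119). The GRP and mock libraries did not overlap in any of these 3 lines, while 22.8% of genes in 1057, 9.65% in 1064 and 18% in 1014-Grpr were higher in all GRP libraries. In 1181-Grpr Foxd3 was 9.74, 4.72 and 5.09 CPM in mock and 8.75, 4.16 and 5.02 CPM after GRP (-0.13 ± 0.51, adjusted p = 1). Averaged over the 4 receptor-expressing lines in a fit of all 72 libraries, the log2 fold change of Foxd3 was 0.86 ± 0.16 (adjusted p = 5.18e-05, where 25.9% of genes passed). The effect in 1014-Grpr exceeded that in 1014-Ctrl by 0.25 (adjusted p = 0.825, where 5.57% of genes passed). It exceeded it by 0.23 with the block (adjusted p = 0.719) and by 0.60 without the 2 libraries (adjusted p = 0.510), neither of which passed, and by 0.67 with the block in the libraries that matched their labels (adjusted p = 0.0103, where 30.6% passed).

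Kit fell. In 1057 its mock libraries at 656 to 676 CPM stood above GRP libraries at 449, 449 and 455 CPM (log2 fold change -0.53 ± 0.03, adjusted p = 1.84e-11). In 1064 it was 145, 146 and 73.7 CPM in mock and 45.4, 62.3 and 43.8 CPM after GRP (-1.27 ± 0.25, adjusted p = 0.0169). In 1014-Grpr each GRP library was below the mock library of the same number, at 108 against 157, 137 against 179 and 57.5 against 85.4 CPM. The groups overlapped, and the change of -0.47 ± 0.37 did not pass (adjusted p = 0.376) until the block was added (-0.48 ± 0.06, adjusted p = 1.02e-06). The mean effect over the 4 receptor-expressing lines was -0.59 ± 0.17 (adjusted p = 0.00605), and -0.51 without replicate 1, where it did not pass. Kitl, which encodes the ligand of KIT, moved oppositely, rising by a log2 value of 2.18 ± 0.08 in 1057 and 1.14 ± 0.10 in 1014-Grpr (adjusted p = 8.6e-14 and 6.71e-06). In 1064 Kitl had 1.25 ± 0.51, which did not pass (adjusted p = 0.179) until the block was added (adjusted p = 0.000727).

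Tfap2a moved in opposite directions. It rose in 1057, from 24.2, 24.7 and 25.2 CPM to 32.6, 33.3 and 33.6 CPM (log2 fold change 0.45 ± 0.06, adjusted p = 1.97e-06), and in 1014-Grpr, from 61.9, 79.3 and 71.8 CPM to 88.9, 100 and 110 CPM (0.50 ± 0.14, adjusted p = 0.0150). It fell in 1064, from 87.5, 76.8 and 74.4 CPM to 58.6, 58.6 and 55.0 CPM (-0.47 ± 0.09, adjusted p = 0.0158). This call in 1064 was lost with any 1 replicate left out and kept with the block (adjusted p = 0.000147). In each of these lines the GRP and mock libraries did not overlap. Of all genes, 22.8% in 1057 and 18% in 1014-Grpr were higher in all GRP libraries. The share lower in all GRP libraries of 1064 is not reported here. The difference between the effects in 1057 and 1064 was 0.90 ± 0.37 on the log2 scale and did not pass in the fit of 72 libraries (adjusted p = 0.396, where 0.898% of genes passed). It passed with the block (adjusted p = 0.0410, where 10.7% passed) and with the block in the 70 libraries that matched their labels (adjusted p = 2.56e-11, where 20.9% passed).

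Axl rose in 1014-Grpr, from 33.7, 45.8 and 24.9 CPM to 55.7, 99.5 and 53.9 CPM (log2 fold change 1.01 ± 0.30, adjusted p = 0.0261). In 1064 it was 50.2, 18.9 and 55.5 CPM in mock and 168, 35.6 and 75.9 CPM after GRP. Each GRP library was above its numbered mock partner, but the groups overlapped (1.17 ± 0.69, adjusted p = 0.370, and 1.07 ± 0.18, adjusted p = 0.00110 with the block). In 1057, where Axl stayed at 0.353 to 0.620 CPM after GRP, the log2 fold change was -0.11 ± 0.37 (adjusted p = 0.826). The effect in 1014-Grpr exceeded that in 1014-Ctrl by 1.02 (adjusted p = 0.394), which passed with the block (adjusted p = 2.17e-05, where 26.5% of genes passed). Without the 2 libraries the difference was 0.84 (adjusted p = 0.636), or 0.97 with the block (adjusted p = 2.20e-05). Tcf4 had a log2 fold change of 0.01 ± 0.04 in 1057 and 0.06 ± 0.38 in 1064, and neither passed. In 1014-Grpr Tcf4 had -0.24 ± 0.18 (adjusted p = 0.351), or -0.23 ± 0.06 with the block (adjusted p = 0.00221), the opposite sign to Axl in the same libraries.

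Sox9 fell in 1057, from 18.5, 20.8 and 19.4 CPM to 8.87, 8.77 and 9.83 CPM (log2 fold change -1.07 ± 0.08, adjusted p = 1.12e-09). In 1064 the change of -0.35 ± 0.26 did not pass (adjusted p = 0.485), and in 1014-Grpr Sox9 had 0.39 ± 0.21 (adjusted p = 0.184), or 0.38 ± 0.07 with the block (adjusted p = 0.000247). Aqp1 rose in 1057 by 0.43 ± 0.14 (adjusted p = 0.0158, lost with any 1 replicate left out) and had -0.79 ± 0.68 in 1064 (adjusted p = 0.562, and 0.0155 with the block). Pax3 rose by 0.09 ± 0.03 in 1057 (adjusted p = 0.0144, lost without replicate 1 or replicate 3) and had -0.19 ± 0.07 in 1014-Grpr (adjusted p = 0.0590, and 0.000173 with the block). Sox10 had log2 fold changes of -0.01 ± 0.03 in 1057, 0.06 ± 0.14 in 1064 and 0.11 ± 0.06 in 1014-Grpr, and passed only in 1014-Grpr with the block (adjusted p = 0.00602). Sox2 did not pass in 1057 (0.85 ± 0.43 at levels below 0.343 CPM, adjusted p = 0.107) or 1014-Grpr (0.24 ± 0.25, adjusted p = 0.504) and was too low to be tested in 1064.

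**Figure D3:**
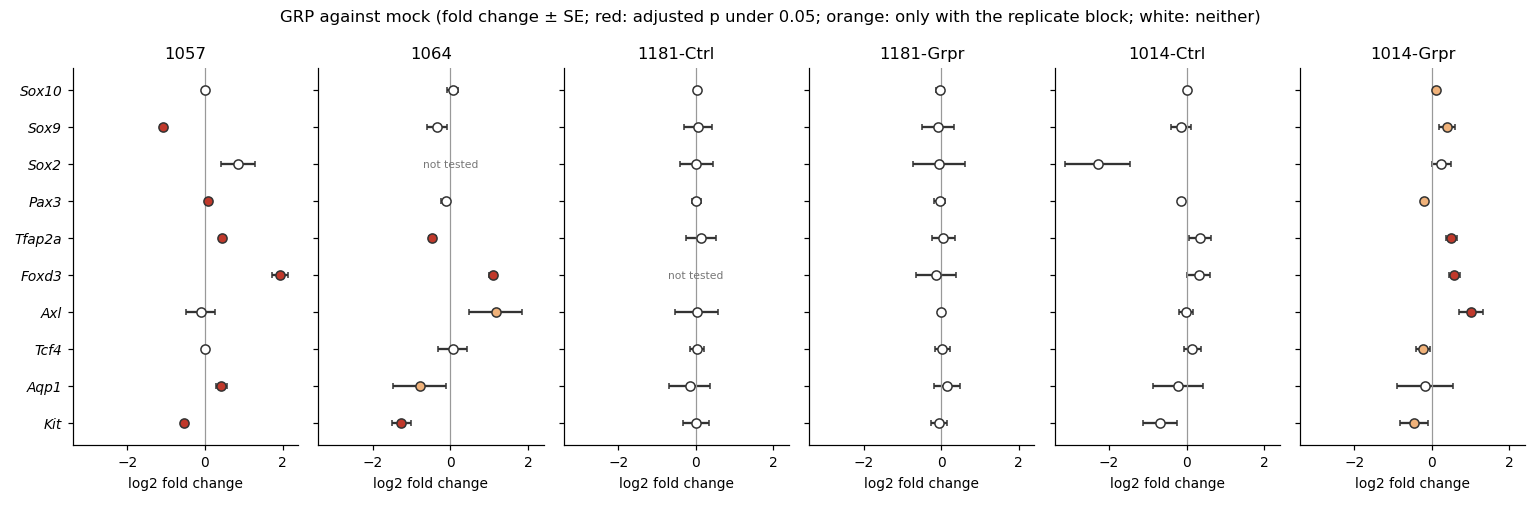
Log2 fold change of GRP against mock with its SE for the 10 genes in the 6 lines. Red points passed at an adjusted p under 0.05, orange points only with the replicate block and white points in neither fit. Foxd3 is red in 1057, 1064 and 1014-Grpr, and Tfap2a lies on opposite sides of 0 in 1057 and 1064.

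In the lines without the receptor and in 1181-Grpr no member passed. On simulated data the fit recovered 56% of 2-fold and 18% of 1.5-fold changes in 1181-Grpr, so changes of this size could be missed there. The simulated libraries were drawn independently, without the shared deviation of same-numbered replicates, so these shares may not hold for the real libraries. The largest absolute log2 fold change of the members in 1181-Grpr was 0.15 ± 0.33 (Aqp1), and in 1181-Ctrl -0.16 ± 0.52 (Aqp1). No gene passed in either line by edgeR or DESeq2, and 45 and 37 genes had an unadjusted p under 0.05, far below a share of 0.05 of the genes tested. Same-numbered replicates deviated together in both lines, and the fit without the block counts this as spread. With the block no member passed in either line. In 1014-Ctrl no gene passed by either tool, with 562 genes at an unadjusted p under 0.05. There Sox2 had a log2 fold change of -2.29 ± 0.84 (adjusted p = 0.698), which was 0.10 ± 0.21 without the library labelled mock replicate 2 (adjusted p = 1.00). Kit likewise went from -0.68 ± 0.44 to 0.11 ± 0.28. The GRP effect in 1181-Grpr did not differ beyond the test's threshold from that in 1181-Ctrl for any member, with or without the block. No gene passed that comparison without the block, with 123 at an unadjusted p under 0.05, again below a share of 0.05, and none by DESeq2.

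With the antagonist added, most members that GRP had changed in 1057 lay between mock and GRP alone. By the log2 differences, Foxd3, Sox9 and Tfap2a remained closer to GRP alone than to mock. In 1057 GRP+RC libraries held 8.64, 4.85 and 7.19 CPM of Foxd3, between the mock and GRP ranges, a log2 difference of -0.78 ± 0.18 from GRP alone (adjusted p = 0.00382) and of 1.15 ± 0.22 from mock (adjusted p = 0.00037). Kit in the same libraries was 560, 564 and 535 CPM, above GRP alone (0.27 ± 0.03, adjusted p = 9.87e-07) and below mock (-0.26 ± 0.03, adjusted p = 6.53e-07). Sox9 was 12.3, 9.98 and 11.7 CPM, above GRP alone by 0.29 ± 0.08 (adjusted p = 0.0154) and below mock (-0.79 ± 0.07, adjusted p = 8.94e-08). Tfap2a had -0.16 ± 0.06 against GRP (adjusted p = 0.0496) and 0.30 ± 0.06 against mock (adjusted p = 0.000325). The first of these calls was lost with the block (adjusted p = 0.0520) and by DESeq2 (adjusted p = 0.0776). Pax3 was lower than with GRP alone (-0.13 ± 0.03, adjusted p = 0.00233) and did not pass against mock (-0.04 ± 0.03, adjusted p = 0.266). Thus 5 of 10 members passed against GRP, where 24.7% of genes passed, and 4 against mock, where 44.3% did. Against GRP, Foxd3 and Tfap2a no longer passed without replicate 2 or without replicate 3, Sox9 without replicate 1 or replicate 3, and Pax3 without replicate 3, where the log2 differences were -0.44 and -0.76, -0.08 and -0.15, 0.21 and 0.31, and -0.10.

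In 1064 Foxd3 returned to 51.1, 50.9 and 50.1 CPM, below GRP alone (log2 difference -0.78 ± 0.10, adjusted p = 0.0480), and was 1 of the 4 genes among 13794 (0.029%) that passed, a call lost with any 1 replicate left out. DESeq2 called 225 genes and the block 2921 (21.2%). With the block, Tfap2a (0.33 ± 0.05), Axl (-0.96 ± 0.18) and Kit (0.71 ± 0.17) also passed against GRP alone (adjusted p = 0.00319, 0.00624 and 0.0163). Against mock no member passed in 1064 (Foxd3 0.32 ± 0.10, adjusted p = 1), and no gene did by edgeR or DESeq2. In 1014-Grpr no member passed against GRP alone (11.8% of genes did), and 8 passed with the block (38.7%), among them Axl at -0.75 ± 0.07 (adjusted p = 7.22e-08), Foxd3 at -0.38 ± 0.09 (adjusted p = 0.00199) and Kit at 0.40 ± 0.06 (adjusted p = 2.67e-05). The comparisons with GRP alone and with mock share libraries, so their values are given side by side.

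RC alone changed 2 members in 1057, where 24.3% of genes passed. Sox9 was 15.8, 16.2 and 16.8 CPM, below mock (log2 difference -0.27 ± 0.07, adjusted p = 0.00850). Tfap2a was 27.6, 29.0 and 29.1 CPM, above mock by 0.21 ± 0.06 (adjusted p = 0.0138). Both moved in the direction that GRP gave in this line, and neither passed without replicate 2 or without replicate 3. No member passed for RC alone in the other 5 lines.

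**Figure D4:**
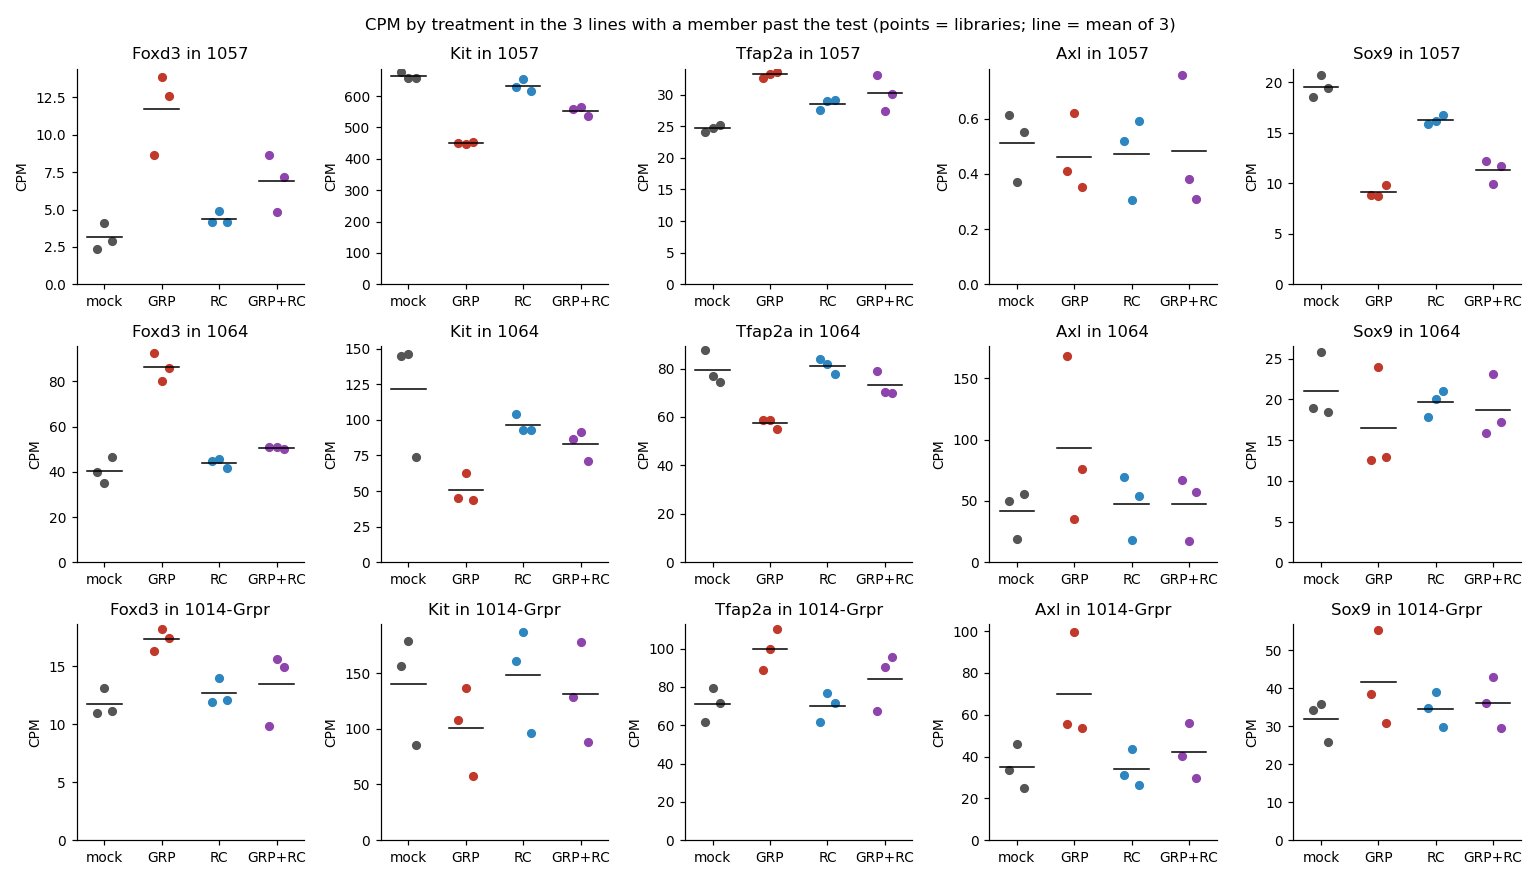
CPM (linear axes from 0) of Foxd3, Kit, Tfap2a, Axl and Sox9 in the 3 libraries of each treatment in 1057, 1064 and 1014-Grpr, with the mean of 3 as a line. Foxd3 is highest and Kit lowest with GRP in each line, and the GRP+RC means lie between those of mock and GRP for both genes.

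Other genes of these states were read from lists that were chosen with earlier results of these data known, so their counts and medians are descriptions. Of the 11 genes of the undifferentiated and invasive list, 6 were tested in 1057, where 5 rose and 1 fell, where 52.6% of all genes passed, and the median log2 fold change was 3.44 against -0.01 for all genes. Only 4 of the 11 reached 1 CPM in mock-treated 1057. The filter used all treatments, so a gene high only after GRP could be tested, which would raise this median. In 1014-Grpr 5 of 7 rose, where 29% of all genes passed, with a median of 1.5 against -0.02. In 1064 2 of 7 rose, where 6.38% of all genes passed, with a median of 1.81 against -0.02. The matrix protein gene Tnc rose by 4.75 ± 0.10 in 1057, 3.78 ± 0.51 in 1064 and 5.52 ± 0.48 in 1014-Grpr (adjusted p = 3.82e-17, 0.00477 and 7.64e-06). The AP-1 subunit gene Fosl1 rose by 3.11 ± 0.17, 2.66 ± 0.67 and 4.48 ± 0.22 in these lines (adjusted p = 2.31e-11, 0.0432 and 2.77e-07). Tcf4 and Axl did not share this rise in 1057.

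Of the 18 other neural crest regulators, 12 were tested in 1057, where 4 rose and 5 fell, and the median was -0.02. In this line 52.6% of all genes passed, with a median of -0.01. Sox5, a SOX factor that can restrain SOX10 activity, fell in the 3 lines with passing genes, with log2 fold changes of -0.79 ± 0.04 in 1057, -1.26 ± 0.13 in 1064 and -0.40 ± 0.08 in 1014-Grpr (adjusted p = 2.7e-11, 0.00396 and 0.00235). Id2, an inhibitor of bHLH factors, rose in 1057 (0.79 ± 0.05, adjusted p = 5.36e-10) and fell in 1014-Grpr (-0.85 ± 0.12, adjusted p = 0.000226). Tfap2b, a relative of Tfap2a, fell in 1057 (-0.70 ± 0.04, adjusted p = 3.41e-11) and rose in 1014-Grpr (1.45 ± 0.29, adjusted p = 0.00298). The differences between lines for Id2 and Tfap2b were not tested here. Of the 5 neural crest-like state genes taken from the study's methods without Aqp1, 4 were tested in 1057. There 1 rose and 2 fell, between -0.21 (Tmem176b) and 0.16 (L1cam) on the log2 scale, where 52.6% of all genes passed. In 1014-Grpr 1 rose, the nerve growth factor receptor gene Ngfr (0.75 ± 0.17, adjusted p = 0.00608), where 29% of all genes passed. None passed in 1064, where 6.38% did.

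Among ligands, relatives and partners of the members, Erbb3, a neuregulin receptor gene controlled by SOX10 in the neural crest, fell, with log2 fold changes of -1.67 ± 0.04 in 1057, -1.77 ± 0.31 in 1064 and -0.50 ± 0.15 in 1014-Grpr (adjusted p = 6.64e-16, 0.0113 and 0.0276), while Sox10 itself did not pass in 1057 or 1064. Ednrb, the endothelin receptor gene of melanoblasts, fell in 1057 (-1.21 ± 0.03, adjusted p = 1.18e-15). Tcf12, an E-protein gene related to Tcf4, rose in 1057 (0.40 ± 0.03, adjusted p = 3.86e-09) and 1014-Grpr (0.90 ± 0.08, adjusted p = 7.1e-06). Of the 10 melanocyte lineage genes, 3 rose and 4 fell in 1057, where 52.6% of all genes passed, and the median was -0.04 against -0.01 for all genes. Tyrp1 at 1.04 ± 0.04 and Mitf at 0.94 ± 0.04 were among those that rose (adjusted p = 1.63e-13 and 1.7e-13), and the 4 that fell are not named here. None passed in 1064 (6.38% of all genes did), and Trpm1 fell in 1014-Grpr (-0.61 ± 0.15, adjusted p = 0.00786, where 29% passed). Of the 3 immune markers, Cd68 rose by 1.99 ± 0.14 in 1057 from 1.54 ± 0.26 CPM in mock and by 1.33 ± 0.30 in 1014-Grpr (adjusted p = 9.5e-10 and 0.00543), where Ptprc and Adgre1 were too low to be tested. The part of Cd68-bearing cells in the members' changes was not tested.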

How the data were processed

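The members and gene lists were chosen with earlier results of these data known. Per the labels and the study's methods, stranded polyA libraries were sequenced in pairs and aligned with STAR to mm10 (GRCm38.p5), after quality control with FastQC 0.11.5, and the authors deposited whole-number counts per Ensembl gene and TPM values. The setting by which the counts used strand was not given in the sources used here. In the deposited TPM table, the columns of 1057 are other text with decimal commas, which were read as numbers. Of 50600 identifiers, 50376 had a symbol, and no column was without a sample.

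Counts were tested with edgeR 4.0.16 (TMM, filterByExpr, quasi-likelihood, Benjamini-Hochberg over all genes tested) in 3 kinds of fit: per line (12 libraries, 13730 to 14506 genes), over the 18 mock libraries (15358 genes), and over all 72 libraries (16596 genes). A gene passed at an adjusted p below 0.05. SEs were derived from the fold change and F. CPM used TMM over 72 libraries. Likeness used log2(CPM + 0.5). Alternatives were DESeq2 1.42.0, RLE scaling, no low-count filter, a log2 fold limit of 1, each replicate left out, the replicate block, omission of the 2 libraries, and 1 fit of 72 libraries. The fits were tested on simulated data. The lowest correlation of same-numbered mock and GRP deviations was 0.618 in 1064, 0.815 in 1181-Ctrl, 0.572 in 1181-Grpr and 0.443 in 1014-Grpr, all above 0.1, and 0.0133 in 1057 and 0.0786 in 1014-Ctrl. No pair of replicates agreed within sampling noise (smallest chi-square per degree of freedom 2.44). The genes named from each list were at most the 4 with the largest absolute fold change among those that passed, and likeness named 3 genes per member, of which those for Sox9 are not reported here. Limits of detection cover counting error only.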

Additional observations from a re-analysis of the deposited data

Results flagged for a closer look

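The response of Tfap2a to GRP went in opposite directions in 1057 and 1064: every GRP library was above every mock library in 1057 and below every one in 1064. In 1057, 22.8% of all genes were higher in every GRP library, and the share lower in every GRP library of 1064 is not reported here. The call for the fall in 1064 was lost with any 1 replicate left out. The log2 difference of the effects was 0.90 (1057 minus 1064). It did not pass without the replicate block (adjusted p = 0.396, edgeR's quasi-likelihood test) and passed with it (adjusted p = 0.0410). With each replicate left out the difference was 0.84 to 0.94, and it passed without replicate 2 (adjusted p = 0.0183) but not without replicate 1 or replicate 3. Groups of 3 libraries were not tested for outlying libraries.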

How the results depend on the processing

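Of 4298 recomputed fold changes of members, 4050 kept their direction and side of the threshold or changed sign while passing in neither fit (220), 139 no longer passed, 108 newly passed and 1 reversed: the effect on Kit in 1014-Grpr minus 1014-Ctrl was 0.20 and became -0.43 with the block and without the 2 libraries. The tests passing for GRP against mock over the 6 lines numbered 12 of 58, and became 5 with the fold limit, 5 in 1 fit of 72 libraries, 19 with the replicate block and 19 with the block without the 2 libraries. In 1057 the 6 members became 2 with the fold limit and 2 in the fit of 72, in 1064 the 3 became 5 with the block, and in 1014-Grpr the 3 became 1, 0 in the fit of 72, and 8 with the block. For GRP+RC against GRP, 6 tests became 0 with the fold limit, 0 in the fit of 72, 16 with the block and 16 with the block without the 2 libraries. For GRP+RC against mock, 4 became 1, 2, 7 and 7 in the same order. For RC against mock, 2 became 0 with the fold limit and 1 in the fit of 72. The 2 members of the mean effect became 0 with the fold limit, 5 with the block and 6 with the block without the 2 libraries. For the differences between lines, 0 became 1 by DESeq2, 8 with the block and 12 with the block without the 2 libraries. The cause of these changes was not tested. With each replicate left out, the counts ranged from 6 to 7 for GRP, 0 to 2 for RC, 1 to 5 for GRP+RC against GRP, 4 to 4 for GRP+RC against mock, 49 to 77 for resting levels, 1 to 2 for the mean effect and 0 to 1 for the differences, and for GRP from 4 to 5 in 1057, 0 to 2 in 1064, 0 to 2 in 1014-Grpr and 0 to 0 in 1181-Grpr. Over all genes, 880 GRP calls in 1064 became 6006 with the block, 3986 in 1014-Grpr became 7366, 4306 for the mean became 7270, 924 for 1014-Grpr minus 1014-Ctrl became 4393, and 149 for 1057 minus 1064 became 1772. DESeq2 called 1679 in 1064. For GRP+RC against GRP over all genes, 4 calls in 1064 became 2921 with the block, and 1616 in 1014-Grpr became 5315. The counts over all genes for GRP+RC against mock with the block are not reported here. Of 120 recomputed relative levels, 98 moved by less than 1 SD between replicates. Depth limits Sox2 in 1057 and 1064 and Foxd3 in 1181-Ctrl.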

Other observations

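Hr, Ets1 and Fah were the genes most like Sox10 over the 24 medians of line and treatment (r = 0.976 for each), and Lncpint, Gm15398 and Rpap3 those most like Sox2 (r = 0.992, 0.982 and 0.980). For Tfap2a they were Tmem179, Tank and Mtap (r = 0.973, 0.970 and 0.969), for Pax3 Ftl1, Hs1bp3 and Nelfcd (r = 0.936, 0.926 and 0.923), and for Aqp1 Cdt1, Rsad2 and Pds5b (r = 0.909, 0.894 and 0.891).

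In mock-treated cells Kitl, the KIT ligand gene, stood at 5.59 ± 0.179 CPM in 1057 and 48.9 ± 26.3 CPM in 1064 (SD, n = 3), the reverse of the order of Kit. Mitf was 421 ± 12.9 CPM in 1057 and 1032 ± 247 CPM in 1064. Ngfr was 0.380 ± 0.187 CPM in 1057, where Axl was also lowest, and 59.6 ± 28.7 CPM in 1064.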
